A study of Bos taurus with 20 samples.

Results

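The genes described are 7 markers of monocytes and macrophages, *CD14*, *CSF1R*, *CD163*, *MSR1*, *MARCO*, *CD68* and *VCAN*, in maternal blood of cattle. They were listed by symbol, under a rule that uses no measured value, and mapped to the Entrez identifiers of the counts through the NCBI cattle gene table. All 7 were found, 1 identifier each, among 37063 identifiers. The samples were whole blood of 20 recipient cows, drawn on day 63 of gestation into Tempus tubes, which lyse the cells and stabilize their RNA, with 1 library for each cow. Every cow carried a female fetus from an oocyte of an Angus beef donor that had been fertilized in vitro with X-sorted semen. The methods call the recipients lactating dairy cows, while a table of the study lists them as Angus, and no breed, parity or age is tied to a sample. The weight of the calf at birth (birth weight, BW) was the only variable and ran from 30.0 to 72.5 kg, so the cows form a single group without a control. Cows are named by the weight of their calf, so that the 56 kg cow is the mother of the 56 kg calf.

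Monocytes are made in the bone marrow, circulate in the blood and become macrophages when they enter tissue. Macrophages of tissue engulf microbes and dying cells, and several receptors used for this uptake appear or increase as a monocyte matures. CD14 binds bacterial lipopolysaccharide and hands it to Toll-like receptor 4, and CSF1R is the receptor through which CSF1 and IL34 keep the lineage alive and growing. CD163 takes up haemoglobin bound to haptoglobin, MSR1 and MARCO are class A scavenger receptors of macrophages, CD68 is a glycoprotein of the lysosome membrane, and VCAN encodes versican, a large proteoglycan that blood monocytes transcribe. In whole blood a lower level of such a gene can come from fewer cells or from less RNA for each cell. As levels are scaled to the library, it can also come from more RNA of other cells. These cannot be told apart here.

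Total counts were between 24632077 and 39892111 per cow (median 33412740). No pair of libraries agreed within sampling noise, as the lowest chi-square per degree of freedom between any pair was 12.2. Levels are given as CPM, which are counts scaled to the library size, with the TMM factors of edgeR. CPM are not divided by the length of the transcript, so levels of different genes are not set against each other. Markers of other blood cells were present in every cow. The summed level of 6 neutrophil markers was between 1525 and 2922 CPM, that of 7 T cell markers between 723.3 and 1157 CPM, that of 6 B cell markers between 635.6 and 1113 CPM, and that of 6 natural killer cell markers between 337.5 and 575.2 CPM. Of 5 eosinophil markers, *IL5RA* alone passed the filter on low counts, *CCR3* and *ALOX15* were listed at 0, and *EPX* and *PRG3* had no identifier.

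The receptors that sense a ligand were measured in every cow. *CD14* was lowest at 26.98 CPM in the 56 kg cow, had a median of 55.63 CPM and was highest at 76.75 CPM in the 55 kg cow. The highest level was 2.85 times the lowest, and the second lowest, in the 46 kg cow, was 38.36 CPM. The 55 and 56 kg cows, next to each other in calf BW, therefore held the extremes of this gene. *CSF1R* was lowest at 88.55 CPM in the 56 kg cow, had a median of 159.6 CPM and was highest at 190.9 CPM in the 37 kg cow. Its second lowest level was 94.49 CPM, again in the 46 kg cow, and the next was 112.7 CPM in the 41.5 kg cow. The spread was 55.55 ± 11.58 CPM for *CD14* and 150.6 ± 29.39 CPM for *CSF1R* (mean ± SD, n = 20 cows).

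The receptors of scavenging differed more between cows. *CD163* was lowest at 62.43 CPM in the 56 kg cow, had a median of 136.8 CPM and was highest at 194.0 CPM in the 55 kg cow, a range of 3.11 times. The 46 and 45 kg cows came next above the lowest, with 80.18 and 85.17 CPM. *MSR1* was lowest at 5.44 CPM in the 50 kg cow, had a median of 8.865 CPM and was highest at 17.26 CPM in the 54 kg cow. A further 3 cows stood high in *MSR1*, the 35 kg (15.3 CPM), 38 kg (14.58 CPM) and 37 kg (14.5 CPM) cows, and the next value below was 10.7 CPM. The 56 kg cow, lowest in *CD14*, *CSF1R* and *CD163*, was at 6.763 CPM and not the lowest here.

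*MARCO*, which resident macrophages of some tissues carry, was close to the limit of detection. It had 149 counts over all 20 cows, and 6 cows had 10 counts or more, which let it pass the filter. The 32, 38, 43 and 55 kg cows had 0 counts. A count of 0 allows a level of up to 0.0778, 0.0908, 0.0832 and 0.0977 CPM in these cows, respectively, taking 3 counts as the limit and counting error alone. Unlike the levels, these limits are scaled by library size alone, without the TMM factors. The median was 0.211 CPM. The highest level was 0.819 CPM in the 45 kg cow, from 24 counts (95% exact Poisson interval 15.4 to 35.7), and the second highest was 0.613 CPM in the 35 kg cow.

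*CD68* was lowest at 126.3 CPM in the 56 kg cow, had a median of 239.9 CPM and was highest at 309.2 CPM in the 35 kg cow. The 45 and 46 kg cows were at 141.8 and 141.9 CPM, after which there was a gap to 178.2 CPM in the 47.4 kg cow. *VCAN* was lowest at 279.2 CPM in the 56 kg cow, had a median of 470.1 CPM and was highest at 586.9 CPM in the 35 kg cow. The second lowest was 304.4 CPM in the 46 kg cow, followed by 331.4 CPM in the 43 kg cow. The plot of level against BW shows these values for each cow.

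**Figure D1:**
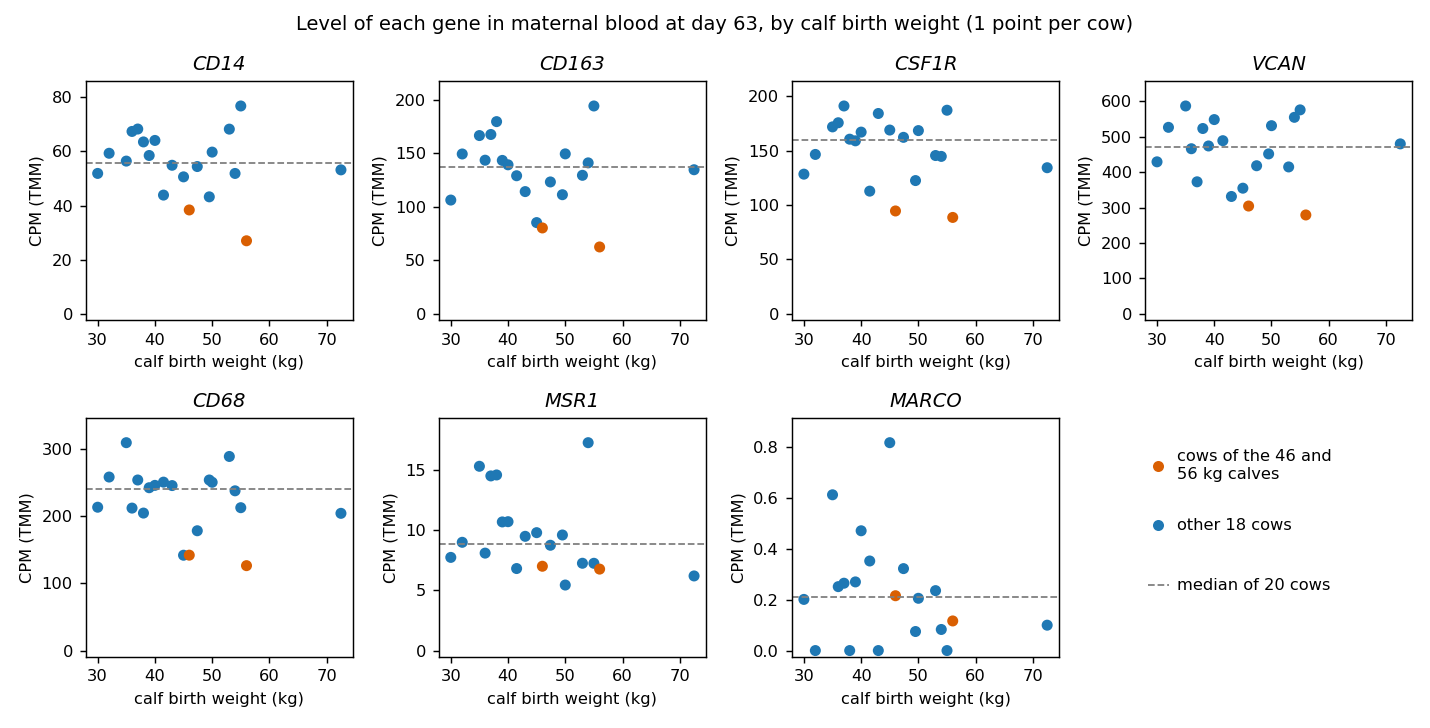
Level of each of the 7 genes (vertical axis, CPM scaled by TMM, from 0) against calf birth weight (horizontal axis, kg), with 1 point for each of 20 cows and the median as a dashed line. The cows of the 46 and 56 kg calves, in orange, lie at the bottom of *CD14*, *CSF1R*, *CD163* and *VCAN*, while *MSR1* has its lowest point at 50 kg and *MARCO* has 4 points at 0.

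On the log2 scale, the SD over the 20 cows was 0.34 for *CD14*, 0.31 for *CSF1R*, 0.40 for *CD163*, 0.46 for *MSR1*, 0.34 for *CD68* and 0.31 for *VCAN*. Over the 16269 genes that passed the filter in 20 cows the median SD was 0.23, and 61.1 to 72.7% of genes had a smaller SD than these 6 members. The SD of *MARCO* was 1.17, above that of 94.7% of genes, at 0 to 24 counts per cow. All 7 members thus varied more between cows than the middle gene of blood.

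The low values came largely from the same animals. The 56 kg cow was among the 5 lowest cows in 6 of the 6 members other than *MARCO* and was the lowest in 5 of them. The 46 kg cow was also among the 5 lowest in 6 of 6 members, and the 45 kg cow in 4. At the other end, the 35 and 37 kg cows were among the 5 highest in 5 members each and the 55 kg cow in 4. The first principal component of these 6 members held 65.0% of their standardised variance. The 56 and 46 kg cows also had the highest levels of *IL5RA*, the eosinophil gene named here after its values were seen, at 200 and 148 CPM, against a median of 58.75 CPM and a lowest value of 20.23 CPM over the 20 cows. Their neutrophil markers summed to 1527 and 1846 CPM, below the median of 2197 CPM. Most of this sum is *CSF3R*, with 1207364 counts over the 20 cows, against 118296 for *CXCR2*, the next of the 6 markers. The 45, 47.4 and 72.5 kg cows were also low in this sum, at 1525, 1719 and 1820 CPM. As the mean z-score of the same markers, where each has the same weight and 0 is the mean of the cows, the 56 and 46 kg cows were at -0.93 and -0.17. The 46 kg cow was thus low in the sum but near the mean in the score. The part of these other cells in the low levels was not tested.

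**Figure D2:**
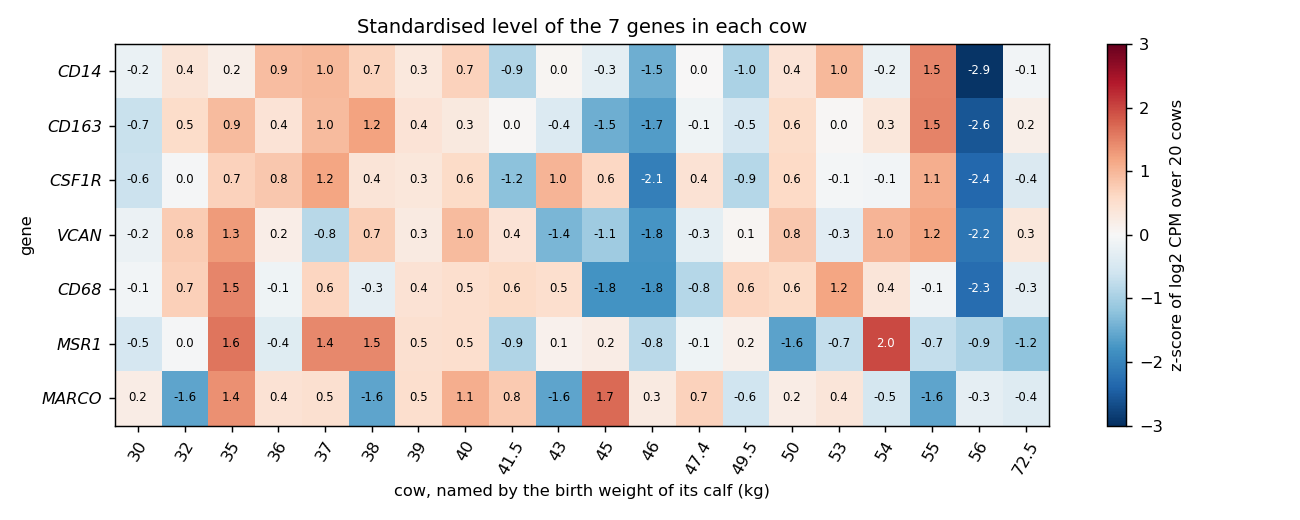
Standardised level of each gene (rows) in each cow (columns, ordered and named by calf birth weight in kg), as the z-score of log2 CPM over 20 cows, blue for low and red for high. The columns of the 46 and 56 kg calves are blue in the first 6 rows, and *MARCO* in the last row follows another order.

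Co-variation was examined over all 21 pairs of the 7 genes in the 20 cows, with permutation tests adjusted over the pairs by the Benjamini-Hochberg method. Of these, 8 pairs were positively correlated by Pearson r and 4 of them also by Spearman rho. *CD14* went with *CSF1R* (r = 0.87, permutation p = 1e-05, adjusted p = 7e-05; rho = 0.73, adjusted p = 0.00409). *CD14* also went with *CD163* (r = 0.85, permutation p = 1e-05, adjusted p = 7e-05; rho = 0.80, adjusted p = 0.00168). *CD163* went with *VCAN* (r = 0.82, permutation p = 1e-05, adjusted p = 7e-05; rho = 0.72, adjusted p = 0.00413). A permutation p of 1e-05 is the smallest that 100000 resamples can give. The fourth pair by both measures was *CD163* with *CSF1R* (r = 0.72, permutation adjusted p = 0.00323; rho = 0.61, adjusted p = 0.0237).

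How far r fell without the lowest cows differed between pairs. The cows farthest from the median of *CD14*, *CD163*, *CSF1R* and *VCAN* were those of the 56 and 46 kg calves. Without both, r was 0.72 for *CD14* and *CSF1R* (permutation p = 0.00079), 0.66 for *CD14* and *CD163* (permutation p = 0.00348) and 0.65 for *CD163* and *VCAN* (permutation p = 0.00338), and these 3 pairs passed the adjusted threshold in the remaining 18 cows. *CD163* and *CSF1R* fell to 0.38 (permutation p = 0.126) and did not pass, although this pair passed with each single cow left out (r = 0.58 to 0.83). Leaving out the extreme cows also narrows the range of the genes, so a lower r cannot show that a relation rested on them. The 4 pairs that passed by r alone did not pass in the 18 cows either. *CD163* with *CD68* went from 0.73 to 0.43, *VCAN* with *CD68* from 0.65 to 0.34, *CD14* with *VCAN* from 0.61 to 0.18 and *CD14* with *CD68* from 0.60 to 0.11. With the 56 kg cow alone left out, 5 pairs passed.

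*CSF1R* did not pass with *VCAN* (r = 0.45, permutation adjusted p = 0.0908) or with *CD68* (r = 0.48, permutation adjusted p = 0.0703). Without the 46 and 56 kg cows these were -0.12 and -0.11. *MSR1* had r between 0.25 and 0.40 with the 5 genes above and passed with none of them, the smallest adjusted permutation p being 0.156 with *CSF1R*. *MARCO* had r between -0.23 and 0.02 with the other members. These values rest on its 0 to 24 counts per cow.

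**Figure D3:**
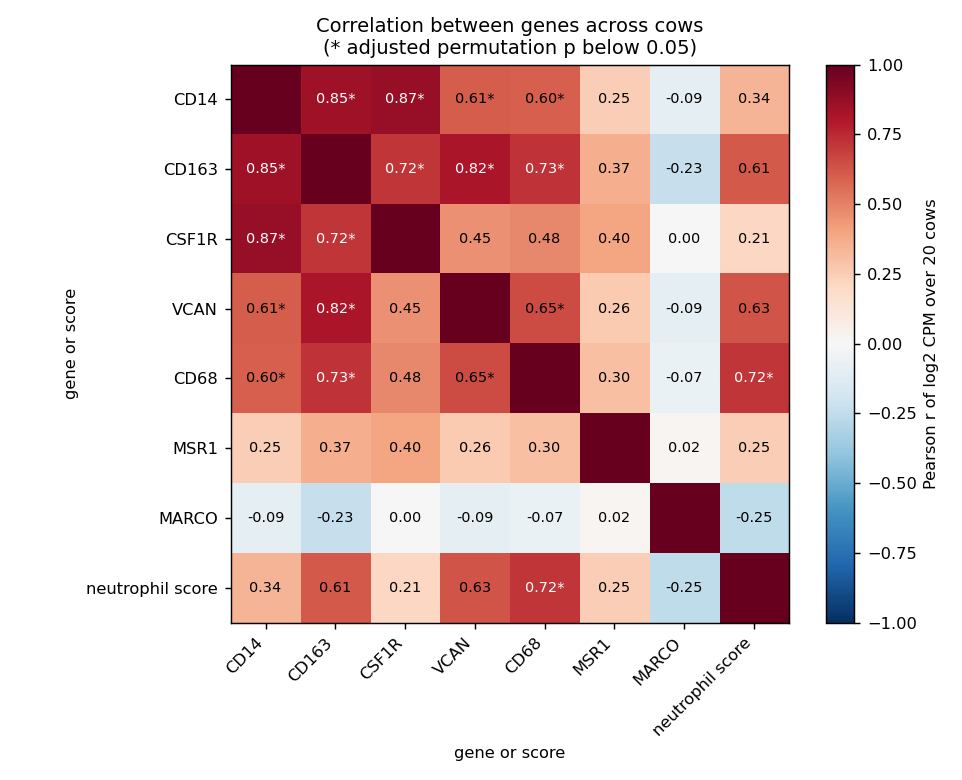
Pearson r of log2 CPM over 20 cows between the 7 genes and with the neutrophil score (rows and columns), red for positive and blue for negative, with * where the permutation p adjusted within its family was below 0.05. *CD14*, *CSF1R* and *CD163* had r from 0.72 to 0.87 with each other. *CD163* also had r of 0.82 with *VCAN* and 0.73 with *CD68*. *CD68* is the 1 gene with * in the neutrophil column.

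The number of other members at an r of at least 0.6 was set beside the share of all 16268 other genes that reached it. *CD14* had 3 of 6 members at that level, against 3.31% of all genes. *CD163* had 4 of 6, against 3.4%, and *CSF1R* had 2 of 6, against 4.35%. *VCAN* had 3 of 6, against 1.53%, and *CD68* had 2 of 6, against 2.96%. *MSR1* and *MARCO* had 0 of 6 each, against 0.4% and 0.197% of all genes.

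The genes whose pattern was most like that of each member were taken by Spearman rho over the 20 cows among named genes, with no test because they were picked for their rho. For *CD14* these were *MITF* (rho = 0.88), a transcription factor, *NR2C2AP* (0.85) and *PPARA* (0.84), a nuclear receptor of lipid metabolism. For *CSF1R* they were *EMILIN2* (0.93), an extracellular matrix glycoprotein, *SLC46A2* (0.92), a solute carrier, and *CNDP2* (0.91), a dipeptidase. For *CD163* they were *S100A8* (0.93) and *S100A12* (0.91), calcium-binding proteins abundant in neutrophils and monocytes, and *RAB31* (0.91), a small GTPase of membrane traffic. For *VCAN* they were *WDR45B* (0.87), *MYBPH* (0.85) and *WLS* (0.85), which carries Wnt proteins to the cell surface.

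The closest genes of *CD68* were *SLC24A3* (0.85), an ion exchanger, *HOOK1* (0.85), a linker to microtubules, and *MAP3K3* (0.82), a kinase. Those of *MSR1* were *SWSAP1* (0.80), *NEIL2* (0.78), a DNA glycosylase, and *HERPUD1* (0.78), a gene of the endoplasmic reticulum stress response. For *MARCO* the highest values were lower, 0.68 for *SUCLA2*, 0.67 for *ATG4B* and 0.67 for *HELLS*. No gene was shared between the 7 sets of 3.

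Genes that act with the members were taken from 8 lists with 76 genes, of which 64 passed the filter in the 20 cows. The members split in how many of these 64 genes they followed at an r of at least 0.6. The count was 22 (34.4%) for *CSF1R*, 21 (32.8%) for *CD14*, 17 (26.6%) for *CD163*, 11 (17.2%) for *CD68*, 5 (7.81%) for *VCAN* and 0 for *MSR1* and *MARCO*, beside the shares of all genes given above. Without the 2 cows farthest from the median of each member, an alternative added after seeing the data, the count was 17 for *CSF1R* (4.87% of all genes), 12 for *CD14* (1.67%), 2 for *CD163* (1.16%), 2 for *CD68* (1.24%), 0 for *VCAN* (0.811%), 1 for *MSR1* (1.15%) and 0 for *MARCO* (0.357%). The cows left out were the 46 and 56 kg cows for *CSF1R*, *CD14*, *CD163* and *VCAN*, and the 45 and 56 kg cows for *CD68*. Single pairs are named here after their values were seen, with permutation p adjusted over all 448 pairs of member and listed gene. *CSF1R* had its highest r with *HMOX1*, haem oxygenase 1 (r = 0.90, rho = 0.82, adjusted p = 0.000407), *CXCL16*, a chemokine that also acts as a scavenger receptor (r = 0.90, rho = 0.89, adjusted p = 0.000407), and *CTSS*, the lysosomal protease cathepsin S (r = 0.90, rho = 0.84, adjusted p = 0.000407). Without the 46 and 56 kg cows these were 0.79, 0.84 and 0.81.

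Among the transcription factors of monocytes, *KLF4* followed *CD163* (r = 0.86, rho = 0.77, permutation adjusted p = 0.000407), with r = 0.72 left without the 2 farthest cows. *CCR2*, the chemokine receptor that draws monocytes out of the marrow, followed *CSF1R* (r = 0.88, rho = 0.75, permutation adjusted p = 0.00064, 0.74 without the 2 farthest cows). Of the 7 tested genes of CSF1R ligands and signalling, *CSF1R* itself was positively correlated with 1 after adjustment and negatively with 1, *PLCG2* (r = -0.59, rho = -0.63, permutation adjusted p = 0.0339, -0.55 without the 2 farthest cows). Of the 9 tested genes of lipopolysaccharide signalling, 0 had an r of at least 0.6 with *CD14*, against 3.31% of all genes, 0 passed after adjustment, and their r ran from -0.38 to 0.53. *TLR4*, the partner of CD14, had r = 0.34 (permutation adjusted p = 0.29) and rho = 0.55, and r was 0.60 without the 2 farthest cows. *ITGAM*, an integrin of myeloid cells, was negatively correlated with *VCAN* (r = -0.67, rho = -0.54, permutation adjusted p = 0.0128) and r was -0.37 without the 2 farthest cows. Of the 8 tested other blood monocyte genes, *VCAN* was positively correlated with 4 after adjustment and negatively with *ITGAM* alone (median r = 0.54). Without the 2 farthest cows these 4 had r of 0.14 to 0.37. With *CD163*, 5 of the 8 passed as positive and *ITGAM* as negative (r = -0.58, rho = -0.31, permutation adjusted p = 0.0408, -0.13 without the 2 farthest cows). *CX3CR1*, *FCGR1A* and *AIF1*, other genes of blood monocytes, were listed at 0 in all 20 cows. Whether these zeros reflect expression was not tested, so they are not read as levels.

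Because blood is a mixture, each member was compared with the mean z-score of the markers of 8 other cell types, 56 relations in all. The neutrophil score (6 genes) was correlated with *CD68* (r = 0.72, permutation p = 0.00039, adjusted p = 0.0218; rho = 0.64, adjusted p = 0.0581). This was the 1 relation to pass by r, and it did not pass when the 35, 45 or 56 kg cow was left out (permutation adjusted p = 0.0711, 0.119 and 0.0613, with r = 0.68, 0.66 and 0.67). For *VCAN* the correlation was 0.63 (permutation adjusted p = 0.0658) and rho was 0.69 (adjusted p = 0.0389). For *CD163* it was 0.61 (permutation adjusted p = 0.0658) and rho was 0.68 (adjusted p = 0.0389). Both *VCAN* and *CD163* therefore passed by rank and not by r, while *CD68* passed by r and not by rank. The values for *CD14* (r = 0.34, permutation adjusted p = 0.311), *CSF1R* (r = 0.21, permutation adjusted p = 0.513), *MSR1* (r = 0.25, permutation adjusted p = 0.418) and *MARCO* (r = -0.25, permutation adjusted p = 0.418) did not pass. Without the 45 and 50 kg cows, the farthest from the median score, r was 0.67 for *CD68*, 0.61 for *MSR1*, 0.60 for *VCAN*, 0.55 for *CD163*, 0.36 for *CD14*, 0.29 for *CSF1R* and -0.11 for *MARCO*. The value of *MSR1* was thus moved most by these cows, of which the 50 kg cow has its lowest level.

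The difference between 2 members in their correlation with the neutrophil score was tested for all 21 pairs by exchanging the standardised values of the 2 genes within cows at random, a comparison added after seeing the data. The correlation was 0.51 higher for *CD68* than for *CSF1R* (permutation p = 0.0101, adjusted p = 0.0437) and 0.41 higher for *CD163* than for *CSF1R* (permutation p = 0.00652, adjusted p = 0.0437). For *VCAN* against *CSF1R* the difference was 0.42 (permutation p = 0.0191, adjusted p = 0.0551). Of the 21 differences 5 passed after adjustment, the other 3 being *CD68*, *VCAN* and *CD163* against *MARCO*, which had 0 to 24 counts per cow, so that those 3 are not read as differences between genes. Without the 56 kg cow 8 passed, with *VCAN* above *CSF1R* among them (difference 0.54, permutation adjusted p = 0.0475). *CD14* and *CSF1R* differed by 0.14 (permutation adjusted p = 0.377).

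**Figure D4:**
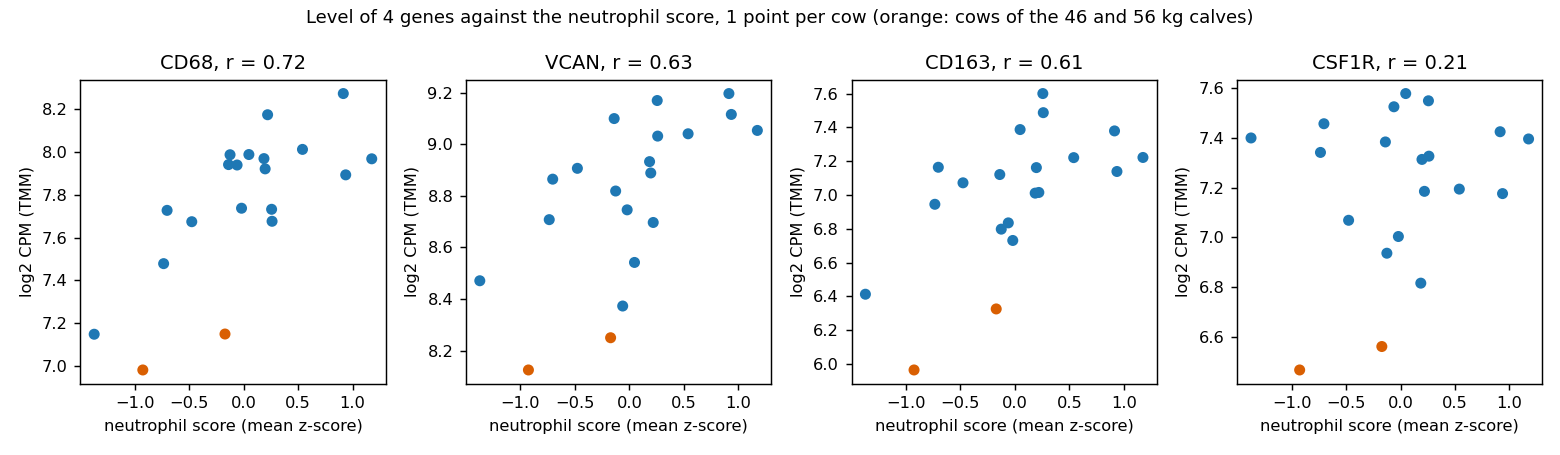
Level of *CD68*, *VCAN*, *CD163* and *CSF1R* (vertical axis, log2 CPM) against the neutrophil score (horizontal axis, mean z-score of 6 markers), with 1 point for each of 20 cows and the cows of the 46 and 56 kg calves in orange. Points of *CD68*, *VCAN* and *CD163* rise with the score (r = 0.72, 0.63 and 0.61), while those of *CSF1R* spread over its whole range (r = 0.21).

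When the neutrophil score was removed from every gene by regression, 4 of the 21 pairs passed in place of 8. *CD14* with *CSF1R* (r = 0.87), *CD14* with *CD163* (0.86), *CD163* with *CSF1R* (0.77) and *CD163* with *VCAN* (0.71) passed, while the 3 pairs of *CD68* that had passed were at 0.37 to 0.54 and *CD14* with *VCAN* was at 0.53. *IL5RA*, the 1 eosinophil marker that could be used, had negative r with all 7 members, from -0.61 with *CD68* to -0.26 with *MARCO*, and passed with none after adjustment (smallest permutation adjusted p = 0.0658). By rank the values were weaker for most, with rho from -0.47 with *CD68* to -0.30 with *CSF1R*. Without the 2 cows farthest from the median of *IL5RA*, r ran from -0.46 with *CD68* to -0.155 with *CD14*. The T cell, B cell, natural killer cell, dendritic cell, platelet and erythroid scores passed with none of the members either. The highest r among these was 0.55, between *CSF1R* and the dendritic cell score (permutation adjusted p = 0.0937).

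The question of the series, whether maternal blood at day 63 is related to calf BW, was addressed with a slope of each gene on BW in 19 cows. The 72.5 kg cow was left out, as in the methods of the study. BW was 43.5 kg on average in these cows, with an SD of 7.97 kg. None of the 7 members had a slope that passed. With edgeR's quasi-likelihood test 0 of 7 had an FDR below 0.05, and the share of all 16206 genes tested was 0.0%. An unadjusted p below 0.05 was reached by 0 of 7 members, against 13.9% of all genes (2247). DESeq2 called 0 of 7 members and 1.22% of the 15478 genes to which it gave an adjusted p.

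All 7 slopes were negative, with intervals that included 0. On the log2 scale per kg, the slope was -0.0088 for *CD14* (95% interval -0.028 to 0.010, edgeR FDR = 0.722) and -0.0088 for *CSF1R* (95% interval -0.027 to 0.0091, edgeR FDR = 0.698). For a calf heavier by 10 kg this is a change of -5.92% in *CD14*, with bounds of -17.6 and 7.44%, and of -5.92% in *CSF1R*, with bounds of -16.9 and 6.55%. For the scavenger receptors the slope was -0.011 for *CD163* (95% interval -0.034 to 0.012, edgeR FDR = 0.700), -0.015 for *MSR1* (-0.042 to 0.012, edgeR FDR = 0.663) and -0.042 for *MARCO* (-0.15 to 0.068, edgeR FDR = 0.778). For *CD68* it was -0.011 (-0.031 to 0.0079, edgeR FDR = 0.636) and for *VCAN* -0.0066 (-0.024 to 0.011, edgeR FDR = 0.785). The median slope of the members was -0.011, against -0.00072 over all genes, of which 53.4% had a negative slope. A shared sign was also seen in other cells, as 6 of 6 B cell markers were negative and 6 of 6 natural killer cell markers positive. The neutrophil, T cell, dendritic cell, platelet and erythroid markers had both signs. The 7 slopes come from the same 19 cows and from genes that move together, so their shared sign is not 7 observations.

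**Figure D5:**
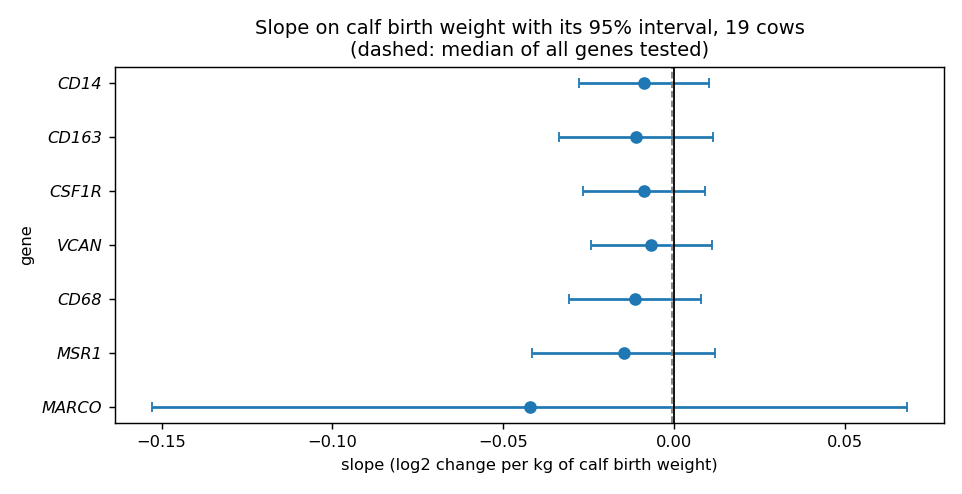
Slope of each gene on calf birth weight (horizontal axis, log2 change per kg) with its 95% interval as a bar, from the edgeR fit in 19 cows, with 0 as a solid line and the median of all genes tested as a dashed line. All 7 points lie below 0 and all 7 intervals cross it, that of *MARCO* being the widest.

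Single cows moved these slopes. Without the 56 kg cow, the heaviest of the 19 and the lowest in 5 members, the slope was -0.00021 for *CD14*, -0.0017 for *CSF1R*, -0.0024 for *CD163*, -0.00028 for *VCAN* and -0.0044 for *CD68*. Without the 55 kg cow, the highest in *CD14* and *CD163*, it was -0.017 for *CD14* and -0.022 for *CD163*, and the unadjusted edgeR p of *CD163* was 0.0503. For *CD14*, *CD163*, *CSF1R* and *VCAN* the slope was nearer 0 without the 56 kg cow and farther from 0 without the 55 kg cow, while for *MSR1* (-0.011 in each case) and *MARCO* (-0.036 and -0.022) it was nearer 0 without either. For *MSR1* the 54 kg cow held the highest level, and without it the slope was -0.032 with an unadjusted edgeR p of 0.00988 and an FDR above the threshold. Without both the 46 and the 56 kg cows the slope of *CD14* was 0.0014, that of *CSF1R* 0.00029 and that of *VCAN* 0.0014, all 3 above 0.

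The slopes of the genes that act with the members were counted in the same fit. At an unadjusted edgeR p below 0.05 they were, as positive and negative, 1 and 0 of the 7 tested genes of CSF1R ligands and signalling, 0 and 1 of 8 monocyte transcription factors, 0 and 1 of 9 genes of lipopolysaccharide signalling, 1 and 0 of 8 genes of haptoglobin, haem and iron, 0 and 3 of 10 other scavenger receptors, 0 and 0 of 4 versican partners and proteases, 1 and 1 of 10 lysosome genes, and 1 and 0 of 8 other monocyte genes. Of all genes, 6.78% were positive and 7.08% negative at that p. None of the listed genes had an FDR below 0.05. The share of negative slopes was 42.9% for CSF1R ligands and signalling, 75.0% for transcription factors, 77.8% for lipopolysaccharide signalling, 62.5% for haptoglobin, haem and iron, 90.0% for scavenger receptors, 50.0% for versican partners, 70.0% for lysosome genes and 62.5% for other monocyte genes, against 53.4% of all genes, and genes of a list share the same 19 cows.

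Among the scavenger receptors *SCARB2*, a lysosomal membrane receptor, was at 27.9, 36.9 and 48.6 CPM as lowest, median and highest cow, with a slope of -0.018 per kg (SE 0.0058, edgeR FDR = 0.197). *OLR1*, a receptor of oxidised lipoprotein, was at 7.5, 15.3 and 21.1 CPM, with a slope of -0.025 (SE 0.0093, edgeR FDR = 0.233). *MERTK*, a receptor for the uptake of dying cells, was at 4.03, 6.39 and 11 CPM, with a slope of -0.027 (SE 0.010, edgeR FDR = 0.253). These 3 genes were named for the smallest p of their list, so their shared sign adds nothing to that of the members.

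Among the regulators, *IRF8*, a transcription factor of monocytes and dendritic cells, was at 86.5, 115 and 150 CPM, with a slope of -0.016 per kg (SE 0.0049, edgeR FDR = 0.182). *CBL*, which tags CSF1R for degradation, was at 220, 250 and 273 CPM, with a slope of 0.0063 (SE 0.0027, edgeR FDR = 0.311). *TICAM2*, an adaptor of Toll-like receptor 4, was at 13.4, 27.3 and 30.7 CPM, with a slope of -0.017 (SE 0.0078, edgeR FDR = 0.320). *BLVRA*, which converts the biliverdin of haem breakdown, was at 19.5, 27.0 and 43.0 CPM, with a slope of 0.019 (SE 0.0072, edgeR FDR = 0.253). The slopes of these 4 genes had mixed signs.

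Of the lysosome genes, *CD63* had a slope of 0.018 per kg (SE 0.0063, edgeR FDR = 0.213) at a median of 76.4 CPM, and *CTSB*, cathepsin B, one of -0.016 (SE 0.0070, edgeR FDR = 0.322) at a median of 518 CPM. *ITGAM* had a slope of 0.021 (SE 0.0071, edgeR FDR = 0.198) at a median of 388 CPM, opposite in sign to *VCAN*, with which it was negatively correlated. *SELPLG*, which binds versican among other ligands, had the smallest p of its list and did not pass, with a slope of -0.0068 (SE 0.0044, edgeR p = 0.139). All slopes named here missed the adjusted threshold, and 13.9% of all genes reached an unadjusted p below 0.05.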

How the data were processed

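Whole-blood RNA of 20 cows was sequenced as polyA RNA, 1 library per cow. Per the study's methods and processing notes, the authors checked reads with FastQC 0.11.9, trimmed them with Trimmomatic, aligned them with STAR 2.7.0b to bosTau9 (ARS-UCD1.3) and counted them per gene with featureCounts of Subread 2.0.3. They deposited raw counts per Entrez identifier, without normalization. The labels name a SMARTer Stranded kit and the methods a Truseq kit, and the strand setting and the treatment of reads that match several genes are not given in the sources used here. No annotated gene overlaps a member. Symbols came from an NCBI table for ARS-UCD2.0, in which all 37063 identifiers were found, and no coordinates are printed because the builds differ. There were 0 further columns of samples.

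Slopes on calf BW were fitted here to the deposited counts of 19 cows with the quasi-likelihood test of edgeR 4.0.16, run in R 4.3.3 after TMM scaling. A gene was tested if 5 or more cows had 10 or more counts (16206 genes), with Benjamini-Hochberg FDR over all of these. DESeq2 1.42.0, the study's own tool, and limma 3.58.1 with voom were alternatives. Correlations used log2 CPM (prior count 2) of 20 cows and two-sided tests of 100000 permutations in Python 3.11.15 with numpy 2.4.6 and scipy 1.17.1. A marker score is the mean z-score of the markers that passed the filter. Other alternatives were size factors, filters, all 20 cows, the rank of BW, marker scores and library size as covariates, and each cow left out. Fits without the 46 and 56 kg cows and the comparison of correlations with the neutrophil score were added after seeing the data. The edgeR fit and the permutation test of correlations were tested on simulated data. The simulated slopes were larger than those of the members, so they do not show what the fit can detect at the members' slopes.

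The members and lists were chosen with earlier results of these data known. Besides the members, the genes named are up to 3 of each list with the smallest p among those with an unadjusted edgeR p below 0.05, or else the 1 smallest, and the 3 named genes closest to each member by rho. The labels give no batch, so no comparison within batches could be made. Cows are separate animals, and intervals on counts and limits at 0 cover counting error only.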

Additional observations from a re-analysis of the deposited data

How the results depend on the processing

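Of 223 slopes of the members under an alternative, 220 were negative and 0 were called. The 3 others came without both the 46 and 56 kg cows, chosen after seeing the data: 0.00139 for *CD14*, 0.000286 for *CSF1R* and 0.00135 for *VCAN*. Leaving out each cow gave slopes of -0.0171 to -0.000207 for *CD14*, -0.0217 to -0.00241 for *CD163*, -0.0144 to -0.00168 for *CSF1R*, -0.012 to -0.00028 for *VCAN*, -0.0168 to -0.00436 for *CD68*, -0.0317 to -0.00913 for *MSR1* and -0.0645 to -0.0223 for *MARCO*. The count of genes called on BW, 0 by edgeR, was 147 with all genes that had any count (3409 at an unadjusted p below 0.05, against 2247), 189 with DESeq2, 4 in all 20 cows, 1 with library size as a covariate and 0 to 34 with each cow left out (34 without the 32 kg cow). No member was among them in any of these fits. The 8 correlated pairs were 4 by Spearman rho, 4 after removal of the neutrophil score, 3 without the 46 and 56 kg cows and 5 to 9 with each cow left out (5 without the 56 kg cow). Without the 46 and 56 kg cows *CSF1R* had r = -0.119 with *VCAN* and -0.107 with *CD68*. The 1 relation of a member with a marker score was 2 by rho, 5 with library size alone as scaling and 0 to 5 with each cow left out (0 without the 35, 45 or 56 kg cow, 4 without the 36 kg cow and 5 without the 55 kg cow). The difference between *CD14* and *MSR1* in their correlation with the neutrophil score was -0.0316 without the 56 kg cow. The cause of these changes was not tested. *MARCO*, with 149 counts in all, was close to the limit of detection at these depths.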
